A study of Mus musculus with 20 samples.

Results

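Natural killer (NK) cells were selected from single-cell RNA-sequencing libraries of spleens and lymph nodes of transgenic mice with B cell disease by the transcripts each cell held. A droplet barcode was taken as a cell when it had at least 1500 unique molecular identifiers (UMIs, 1 per captured RNA molecule), at least 200 detected genes and at most 10% of UMIs in mitochondrial genes. It was taken as an NK cell when it held at least 2 UMIs of Ncr1 and Klrb1c together, no UMI of Cd3d, Cd3e or Cd3g, and at most 1 UMI of Cd79a and Cd79b together. This gate chose 156 of 97181 cells. The comparison population was Ccl5-expressing CD8 T cells of the same libraries, 21516 cells with at least 1 Cd3 UMI, at least 2 of Cd8a and Cd8b1, at least 2 of Ccl5, none of Cd4 and at most 1 of Cd79a and Cd79b.

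The 20 libraries came from 13 mice and fell into 5 groups. Spleen was taken from 5 mice carrying Eµ-PRMT5, 4 carrying Eµ-TCL1 and 4 carrying both (Eµ-PRMT5/TCL1), and lymph node from 3 of the mice with Eµ-TCL1 and 4 of the mice with both, so that 7 mice gave 2 tissues. The transgenes are human cDNAs, PRMT5 (an arginine methyltransferase), TCL1 (an oncogene that drives a disease like chronic lymphocytic leukemia) or both, placed under an immunoglobulin heavy chain promoter and enhancer. They are therefore meant for B cells, and NK cells were measured as bystanders of the B cell disease rather than as carriers of an active transgene. The labels give the strain C57BL/6N throughout, whereas the study's methods place its Eµ-TCL1 line on C57BL/6J. The mouse of Eµ-PRMT5 spleen 3 is labelled E4474, a number that the study's methods give to 1 of 3 Eµ-PRMT5 founders. Whether it was that founder is not stated. Every group carried a transgene, no library came from a mouse without one, ages are not in the labels, and tissues were taken when mice met criteria for removal, so disease stage could differ within a group. The mouse of Eµ-PRMT5/TCL1 spleen 1 and lymph node 2 is labelled M0955-RT. RT is the study's short form for Richter's transformation, but the label does not explain the tag, and this mouse was kept with its group. The nodes were sub-mandibular and the cells were viable and not sorted by type. Each library came from 1 mouse, and p-values for shares measure the spread between mice. Those for NK against CD8 T cells measure the spread of that difference over 4 libraries. Of the expression comparisons between genotypes, 1 had a single library on 1 side, whose own spread was not measured.

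NK cells are innate lymphocytes that kill infected, transformed or antibody-coated cells without a rearranged antigen receptor. Their activity is set by the balance between activating receptors, which signal through adaptors such as Tyrobp (DAP12), Fcer1g and Hcst (DAP10), and inhibitory receptors, many of which recognise MHC class I. In mice the MHC class I receptors are largely the Ly49 lectins of the Klra gene family and the Cd94/Nkg2 pair (Klrd1 with Klrc1). Ncr1 encodes the activating receptor NKp46 and Klrb1c encodes a lectin-like receptor used in C57BL/6 mice as an NK surface marker. Both are also found on group 1 innate lymphoid cells (ILC1), the tissue-resident relatives of NK cells.

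Libraries held between 9348094 and 72440894 UMIs and between 784 and 8631 cells, with a median of 3541 to 13515 UMIs per cell. The median NK cell had 3819.5 UMIs and 1755.5 genes. Between libraries, 6037 barcodes were shared over 190 pairs of libraries, against 6043 expected from the library sizes. Of the NK barcodes, 10 were also a cell in another library, and 0 of them were an NK cell there. Eµ-PRMT5/TCL1 spleen 4 stood apart from the rest by its low share of ribosomal protein transcripts in every cell type examined, as described with the genotype comparison, and its weight in the comparison of NK with CD8 T cells is given with that comparison.

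The gate was checked first against NK transcripts it did not use. Of the 156 cells, 22 held only Ncr1, 43 held only Klrb1c and 91 held both, with a median of 3 and a maximum of 20 UMIs of the pair. At least 1 of 9 other NK transcripts (Gzma, Eomes, Nkg7, Tyrobp, Fcer1g, Klrd1, Klre1, Klrk1 and Prf1) was found in 154 cells, and at least 3 of them in 152 (97.4%, thinned to 1500 UMIs 91.0%). At least 3 were found in 51.4% of CD8 T cells (thinned 12.1%) and in 2% of B cells (thinned 0.417%) of the 4 libraries richest in NK cells, while at least 1 was in 96.0% of CD8 T and 39.2% of B cells and so separates little. Gzma, which encodes granzyme A, had a UMI in 60.9% of NK cells, or 52.6% when every cell was thinned to 1500 UMIs. Eomes, the T-box factor that separates NK cells from ILC1, had a UMI in 62.2% (thinned 46.2%). In 1200 B cells drawn from those 4 libraries, which should lack both genes, the thinned shares were 0.0833% for Gzma and 0.583% for Eomes, and unthinned 0.5% and 2.75%, at a median of 5580 UMIs. In CD8 T cells Gzma had a UMI in 4.45% and Eomes in 59.1% (thinned 28.1%), so that Eomes sets the gated cells apart from B cells but hardly from CD8 T cells.

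Part of the gated set could not be told from ILC1. The 59 cells without an Eomes UMI were shallower than the 97 with one, with a median of 3121 against 4390 UMIs. They held 3 genes linked to ILC1 more often, before and after thinning. Il7r was in 32.2% of them against 12.4% (thinned 20.3% and 6.19%), Cxcr6 in 8.47% against 2.06% (thinned 6.78% and 1.03%) and Tmem176b in 13.6% against 1.03% (thinned 5.08% and 1.03%, with 7.67% of B cells holding a UMI unthinned). Itga1 was in 10.2% against 5.15%, an order that turned on thinning (1.69% and 2.06%). In the CD8 T cells described above, unthinned, Il7r had a UMI in 69.4%, Cxcr6 in 42.2%, Tmem176b in 2.20% and Itga1 in 4.86%. Whether T cells without a captured Cd3 UMI gave part of the Il7r and Cxcr6 shares was not tested. Of the cells without Eomes, 50.8% held Gzma and 42.4% Prf1, against 67.0% and 52.6% of those with it. Divided by Il7r, the 31 cells with a UMI held Eomes in 38.7%, Gzma in 19.4%, Tmem176b in 19.4% and Cxcr6 in 12.9%, against 68%, 71.2%, 2.4% and 2.4% of the 125 without. These divisions were made after the values had been seen, pool cells of all libraries and have no test, and NK is used in what follows as the name of the gate.

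Markers of other cell types were present at levels that differed between libraries. The 9 T cell markers left after the gate genes summed to 401.7 CPM (a gene's UMI count scaled to an equal total in every cell sum) in NK cells, and Cd5 and Cd6 had 0 UMIs. In the 4 libraries with at least 10 NK cells this sum ran from 272.9 to 494.7 CPM in NK cells and from 1547 to 2872 CPM in CD8 T cells. A UMI of at least 1 of the 9 was found in 108 of the 156 NK cells. Whether T cells without a captured Cd3 UMI were among them was not tested. The 12 B cell markers summed to 1947 CPM, with UMIs for 8 of them, and Iglc1, Ebf1 and Pax5 were among those at 0. The 12 myeloid markers summed to 933.2 CPM, with none of Elane, Mpo, Camp or Ltf. By library, in Eµ-PRMT5 spleens 1, 2 and 3 and Eµ-PRMT5/TCL1 spleen 4, the B cell list stood at 6189, 91.9, 335 and 6256 CPM in NK cells against 237, 113, 315 and 987 CPM in CD8 T cells. The NK sum was thus far above the CD8 T sum in Eµ-PRMT5 spleen 1 and Eµ-PRMT5/TCL1 spleen 4, and in the latter it was mostly Cd74 (4577 CPM), H2-Aa (966 CPM) and H2-Ab1 (609 CPM). The myeloid list stood at 4228, 49.5, 68.5 and 42.0 CPM in NK cells against 184, 44.7, 838 and 1725 CPM. Most of the immunoglobulin and myeloid signal lay in 3 cells of Eµ-PRMT5 spleen 1, of which 1 held 1647 immunoglobulin UMIs and the others held 357 and 234 Lyz2 UMIs. The erythroid list reached 572.3 CPM, nearly all of it Car2, while the Il22, Il17a, Areg, Il13 and Il5 transcripts of group 2 and 3 innate lymphoid cells were all at 0 UMIs. The 7 dendritic cell markers summed to 91.6 CPM. In the same 4 libraries they ran from 56.5 to 251.9 CPM in NK cells and from 75.2 to 84.8 CPM in CD8 T cells. Cells of another lineage were sought by immunoglobulin, myeloid and erythroid genes only, and whether the gate held dendritic cells was not tested.

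Cells just outside the gate also held NK transcripts. The 147 barcodes with exactly 1 UMI of Ncr1 and Klrb1c had a Tyrobp UMI in 85.7%, an Eomes UMI in 57.1% and a Gzma UMI in 30.6%. The 63 cells with exactly 2 UMIs had these in 90.5%, 63.5% and 42.9%, and the 93 cells with 3 or more in 97.8%, 61.3% and 73.1%. Median depth was 3343, 3448 and 4065 UMIs in the same order.

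NK cells were scarce in nearly every library. They were found in 18 of 20 libraries, but only 4 libraries held at least 10, and 13 held at least 3. The Eµ-PRMT5 spleens held 24, 32, 39, 1 and 0 NK cells, the Eµ-TCL1 spleens 1, 3, 1 and 7, and the Eµ-PRMT5/TCL1 spleens 2, 7, 4 and 13. The Eµ-TCL1 lymph nodes held 0, 3 and 4, and the Eµ-PRMT5/TCL1 lymph nodes 5, 3, 5 and 2. Thus 96 of the 156 cells came from Eµ-PRMT5 spleens, and 95 of these from only 3 mice. The counts depend on the cutoff. At 1 or more UMIs of Ncr1 and Klrb1c, Eµ-PRMT5 spleens held 41, 41, 78, 2 and 0 cells. Eµ-TCL1 spleens then held 3, 5, 12 and 19, and Eµ-PRMT5/TCL1 spleens 6, 15, 16 and 19. The nodes held 1, 9 and 15 (Eµ-TCL1) and 6, 4, 6 and 5 (Eµ-PRMT5/TCL1).

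As a percentage of all cells, NK cells made up 0.517%, 3.15%, 0.752%, 0.0217% and 0% of the Eµ-PRMT5 spleens (mean 0.889 ± 1.31, SD, n = 5). The absence in Eµ-PRMT5 spleen 5 (0 of 5977 cells) allows a share of up to 0.0502%, and the exact binomial 95% interval in Eµ-PRMT5 spleen 2 ran from 2.17% to 4.42%. These limits cover counting error only. In Eµ-TCL1 spleens the shares were 0.0158%, 0.0434%, 0.0200% and 0.122% (0.0504 ± 0.0495, n = 4), and in Eµ-PRMT5/TCL1 spleens 0.0335%, 0.189%, 0.0853% and 0.241% (0.137 ± 0.0946, n = 4). The Eµ-PRMT5 group thus held both the highest and the lowest spleen, and it overlapped both other groups.

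**Figure D1:**
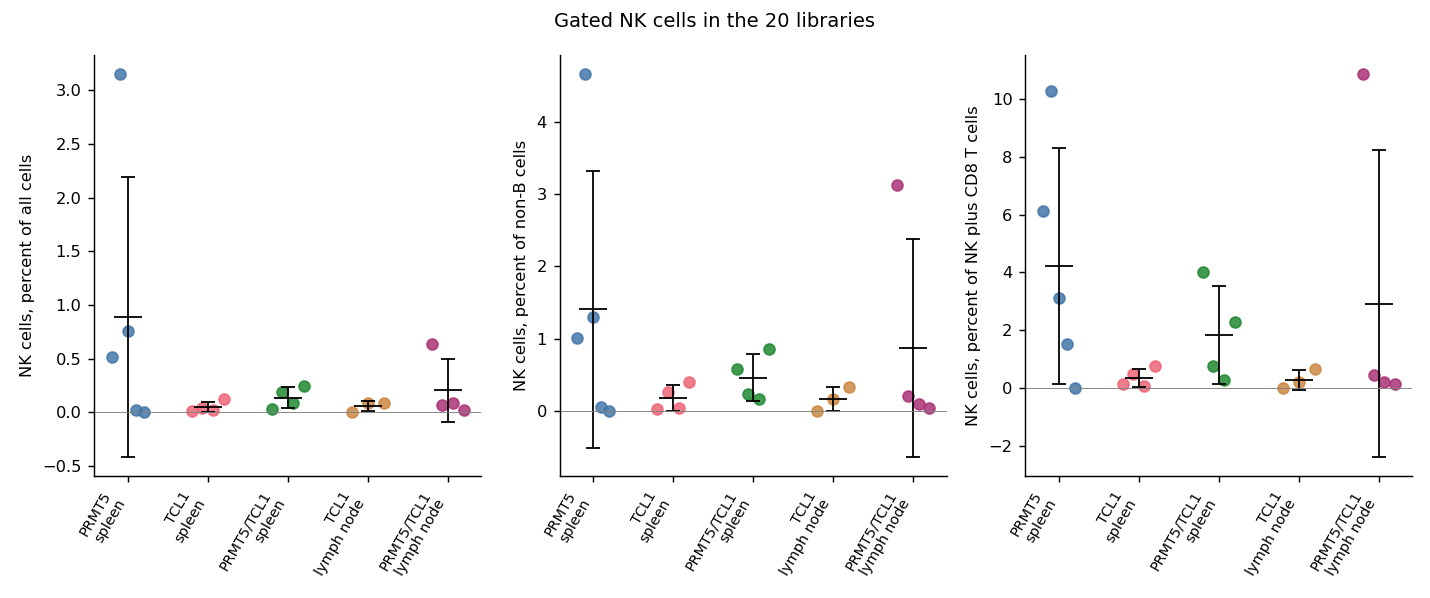
Gated NK cells in each library as a percentage of all cells, of non-B cells and of NK plus Ccl5-expressing CD8 T cells (vertical axes, percent; 1 point per library, bars show the group mean ± SD, and bars that pass below 0 reflect only the SD). Eµ-PRMT5 spleen 2 (3.15% of all cells) and Eµ-PRMT5/TCL1 lymph node 1 (10.9% of NK plus CD8 T cells) stand above the other libraries of their groups.

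Because B cells ranged from 11.4% to 94.3% of a library, NK cells were also counted against non-B cells and against CD8 T cells. Of non-B cells they made up 1.41% ± 1.91 in Eµ-PRMT5, 0.183% ± 0.183 in Eµ-TCL1 and 0.464% ± 0.322 in Eµ-PRMT5/TCL1 spleens. Of NK plus CD8 T cells they made up 4.22% ± 4.08, 0.358% ± 0.320 and 1.84% ± 1.68 in the same order. With CD8 T cells as the base, Eµ-PRMT5 spleens exceeded Eµ-TCL1 spleens by 3.86 percentage points (exact two-sided permutation p 0.0794, adjusted p 0.510 by Benjamini-Hochberg over the 15 share tests). This was the lowest p of the 15 tests, so no share comparison between genotypes or tissues passed the test. Without Eµ-PRMT5 spleen 5, which had no NK cell among 3847 CD8 T cells, that difference was 4.91 points (exact permutation p 0.0286, the smallest that 4 against 4 libraries can give, and not adjusted). The lowest Eµ-PRMT5 share left, 1.54% in spleen 4, was 1 NK cell beside 64 CD8 T cells, and the highest Eµ-TCL1 share was 0.754%. By Xist and Y-linked transcripts Eµ-PRMT5 spleens 1 to 4 and Eµ-TCL1 spleen 1 were female. Eµ-PRMT5 spleen 5 and Eµ-TCL1 spleens 2 to 4 were male, so sex was not balanced. Without Eµ-PRMT5 spleen 2 the excess of Eµ-PRMT5 over Eµ-TCL1 spleens was 2.34 points of NK plus CD8 T cells. It was 0.272 points of all cells and 0.409 of non-B cells, against 0.838 and 1.22 with that library. Eµ-PRMT5/TCL1 spleens differed from Eµ-TCL1 spleens by 1.48 points of NK plus CD8 T cells (exact permutation p 0.114) and by 0.0867 points of all cells (exact permutation p 0.2).

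Shares in lymph nodes were not shown to differ from those in spleens. NK cells were 0%, 0.0897% and 0.0832% of Eµ-TCL1 node cells (0.0576 ± 0.05002, n = 3) and 0.638%, 0.0640%, 0.0883% and 0.0232% of Eµ-PRMT5/TCL1 node cells (0.203 ± 0.291, n = 4). The node groups differed by 0.146 points (exact permutation p 0.571), and with 4 against 3 libraries this test cannot go below 0.0571. Without Eµ-PRMT5/TCL1 lymph node 1 the difference was 0.000877 points. In the 7 mice with both tissues, the node share of all cells exceeded the spleen share in 4 mice, with a mean difference of 0.0366 points (exact sign permutation p 0.703). Relative to non-B cells the node share was higher in 1 of 7 mice, and relative to NK plus CD8 T cells also in 1 of 7, yet both mean differences were above 0 (0.203 and 0.553 points, exact permutation p 1 for each) through that 1 mouse. It gave Eµ-PRMT5/TCL1 spleen 4 and lymph node 1, and the node held 5 NK and 41 CD8 T cells. Without it, the differences were -0.140 and -0.782 points, each with an exact permutation p of 0.03125, the smallest that 6 mice can give. The difference between tissues did not differ detectably between the 2 genotypes that had nodes (exact permutation p 0.743, 1 and 0.971 for the 3 denominators). Eµ-PRMT5 spleen 2 and Eµ-PRMT5/TCL1 lymph node 1, which had the highest NK share of all cells among spleens and among nodes, were also the 2 smallest libraries, with 1015 and 784 cells. The part of library size in their shares was not tested.

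To describe what NK cells expressed, UMIs were summed per library over the 108 NK cells and 2406 CD8 T cells of the 4 libraries with at least 10 NK cells (Eµ-PRMT5 spleens 1 to 3 and Eµ-PRMT5/TCL1 spleen 4) and compared within libraries by edgeR's quasi-likelihood test. NK cells differed from CD8 T cells at 763 of 8860 genes tested (8.61%) at a Benjamini-Hochberg adjusted p under 0.05. Of these, 346 were higher in NK cells (3.91%) and 417 lower (4.71%). Without the library as a block the test called 195 genes (126 higher, 69 lower), and without Eµ-PRMT5/TCL1 spleen 4 it called 694 (346 higher, 348 lower), of which 617 were among the 763. Genes of the gates were left out of every test. Other genes expressed along with them were kept, so higher NK genes and lower T cell genes were partly built in by the gates. The median log2 change of all genes tested was -0.10, and it is the reference for the lists that follow. Fold changes are log2 of NK over CD8 T cells ± SE, and all adjusted p-values are from this edgeR test. Here and in the later edgeR comparisons the SE is approximate. It is the size of the log2 change divided by the square root of the quasi-likelihood F statistic.

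Because Eµ-PRMT5/TCL1 spleen 4 stood apart, the genes named or listed here were also tested in the 3 Eµ-PRMT5 spleens alone. Of 120 such genes that were called, 114 could be tested, 101 kept their call and 0 changed direction. The call was lost for Zap70, Sh2d2a, Ctla4, Klra3, Il15, S1pr5, Ifit3, Ier5, Nr4a1, Tubb5, H2-Ab1, Cd74 and S100a9. The filter on low counts removed Camp, Ltf, Pclaf, Hes1, Tmem176b and Trav13-2. The fitted change moved by more than 1.5-fold for 13 genes. It was larger in size without that library for Gzma (7.03), Ccl3 (5.26), Lat2 (5.03), Klrg1 (4.02), Klra1 (3.78), Gzmb (3.61) and Ccr7 (-2.96), and smaller for Pdcd1 (-2.91), Ngp (-2.82), Gzmk (-1.97), Ctla4 (-1.96), S1pr5 (1.58) and Fos (0.91).

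Cytotoxic effectors were led by granzyme A. Gzma stood at 2148, 3526, 2437 and 3905 CPM in the NK cells of Eµ-PRMT5 spleens 1, 2 and 3 and Eµ-PRMT5/TCL1 spleen 4, against 31.8, 12.7, 9.19 and 112 CPM in their CD8 T cells. The lowest NK value was far above the highest CD8 T value, a log2 change of 6.41 ± 0.37 (adjusted p 6.65e-12). Prf1, which encodes the pore-forming protein perforin, was at 227, 403, 226 and 714 CPM in NK cells against 34.4, 37.1, 28.1 and 98.9 CPM in CD8 T cells, a change of 2.64 ± 0.21 (adjusted p 3.43e-09). Granzyme B was less clear cut. Gzmc rose by 4.83 ± 1.00 on 23 UMIs, most of them from Eµ-PRMT5 spleen 3, with none in Eµ-PRMT5 spleen 2 or Eµ-PRMT5/TCL1 spleen 4. Gzmb rose by 2.50 ± 0.55 (adjusted p 0.00279), but CD8 T cells of Eµ-PRMT5/TCL1 spleen 4 held 1006 CPM and its NK cells 692.8 CPM. Of the 15 effector genes tested, 7 rose and 2 fell, with a median of 0.58. Both that fell were granzymes, Gzmm (-2.73 ± 0.45) and Gzmk (-2.62 ± 0.48). The granule genes Srgn, Ctsw and Lamp1 and the death ligand Fasl did not pass, with changes of 0.11, 0.25, 0.31 and 0.37.

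**Figure D2:**
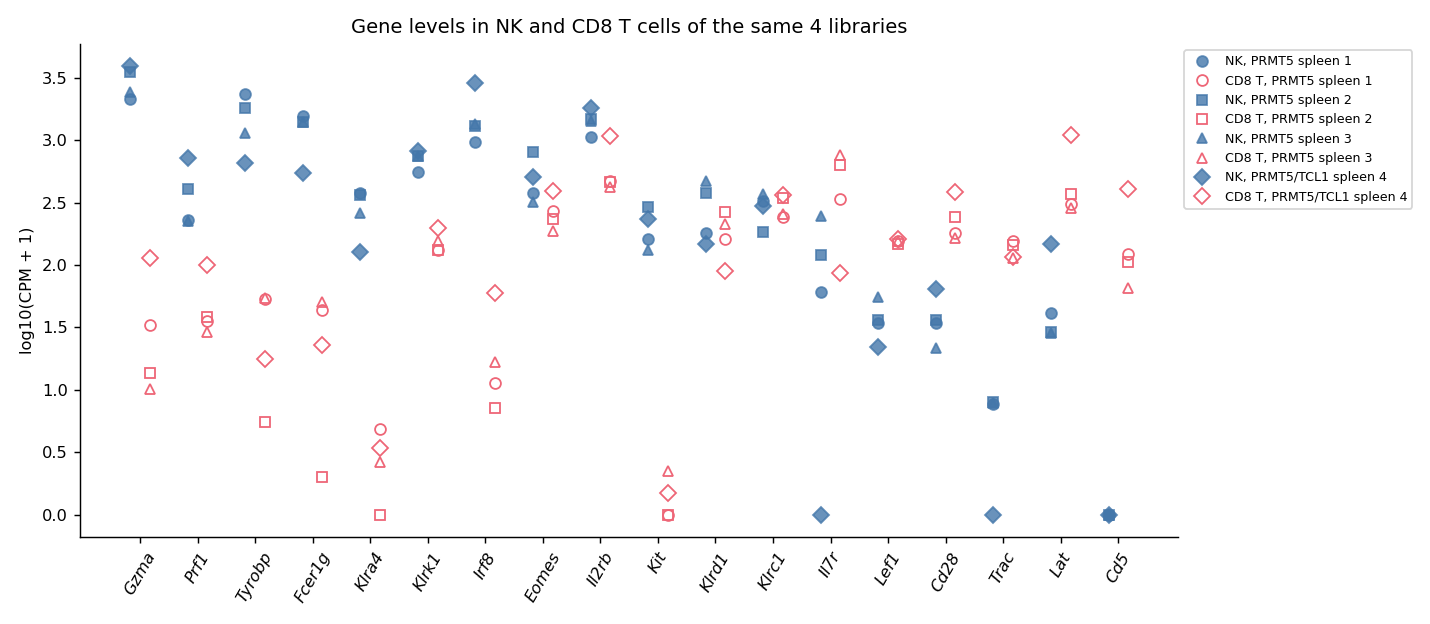
Levels of 18 genes, as log10(CPM + 1), in NK cells (filled) and CD8 T cells (open) of the 4 libraries with at least 10 NK cells, with 1 marker shape per library. Gzma, Prf1, Tyrobp, Fcer1g and Irf8 lie higher in NK cells in every library, Lef1, Lat and Cd28 lie lower, and Eomes and Klrc1 overlap.

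Of the 15 activating receptors tested, 10 rose and 0 fell, with a list median of 2.30. Klrb1a, a relative of the gate gene Klrb1c, had 44 UMIs in NK cells and 0 in CD8 T cells, which is at least 412-fold higher against a floor of 3 UMIs over the 4 libraries, or 212-fold without Eµ-PRMT5 spleen 3, which holds most of the CD8 T UMIs. Klra4 (Ly49D) was at 373, 360, 260 and 126 CPM in NK cells and at no more than 3.87 CPM in any CD8 T sum (6.76 ± 0.37, adjusted p 3.01e-12). Klrb1f rose by 6.06 ± 0.47, and Cd244, which encodes the SLAM-family receptor 2B4, by 5.66 ± 0.62. Klrk1, the gene of NKG2D, which reads stress-induced ligands, was expressed by both populations, at 717 ± 110 CPM against 153 ± 30.7 CPM (SD, n = 4), and still rose by 1.87 ± 0.20 (adjusted p 2.54e-07). Fcgr3, the low-affinity IgG receptor behind antibody-dependent killing, was at 167 ± 93.0 CPM against 4.47 ± 3.56 CPM (4.90 ± 0.42). Cd226, Crtam and Slamf6 did not pass. Klra, Klrb1 and Klrc genes are near-identical paralogs, and reads shared between copies could be assigned to the wrong member, so levels of single members are uncertain.

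Of the 14 signalling adaptors tested, 6 rose and 4 fell, with a median of 0.31, and without Eµ-PRMT5/TCL1 spleen 4 the counts were 6 and 2. Tyrobp was at 2341, 1816, 1136 and 650.8 CPM in NK cells and at 52.9, 4.58, 53.9 and 16.6 CPM in CD8 T cells (5.32 ± 0.39). Fcer1g was at 1561, 1399, 1390 and 545.8 CPM against 42.6, 1.02, 49.9 and 21.9 CPM (5.24 ± 0.44). For both, Eµ-PRMT5/TCL1 spleen 4 gave the lowest NK value, yet no NK value reached a CD8 T value. Sh2d1b1, the adaptor EAT-2, had 26 UMIs in NK and 0 in CD8 T cells (at least 243.6-fold higher, or 125-fold without Eµ-PRMT5 spleen 3), and Lat2 (3.80 ± 0.56), Syk and Plcg2 also rose. Lat, the scaffold of T cell receptor signalling, fell by 3.57 ± 0.28 on the log2 scale (adjusted p 2.21e-09), and Cd247, Zap70 and Sh2d2a fell by 1.34, 0.98 and 0.68. Cd247, the zeta chain, also serves the receptors encoded by Ncr1 and Fcgr3. Zap70 and Sh2d2a were the least firm of these, with adjusted p-values of 0.031 and 0.022, and were lost in 7 alternatives each. Lat is also on the T cell marker list. Because the gates chose cells by Cd3, lower levels of such T cell genes were built into this comparison. Hcst, the adaptor of NKG2D, was at 410 ± 194 CPM against 394 ± 195 CPM and did not pass.

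Among inhibitory receptors, the Ly49 genes rose while several checkpoint genes did not. Klra9 (5.16 ± 0.37), Klrg1 (3.23 ± 0.46), Klra7 (2.99 ± 0.33), Klra1 and Klra3 were higher in NK cells, making 5 of 14 tested, with a list median of 0.38. Klrd1 and Klrc1, the Cd94/Nkg2a pair, were shared, with 293 ± 156 against 181 ± 74.7 CPM for Klrd1 and 294 ± 79.5 against 302 ± 62.1 CPM for Klrc1, and neither passed. Tigit, Cd96, Lag3 and Havcr2 did not pass either. Pdcd1 (PD-1) was at 12.1 ± 10.4 CPM in NK cells and 162 ± 214 CPM in CD8 T cells and fell by 3.54 ± 0.48 on the log2 scale (adjusted p 1.02e-05). Ctla4 had 2 UMIs in NK cells, and the ratio of CD8 T to NK cells was 10.4 (95% counting interval 2.88 to 86.4). CD8 T cells held 216 CPM of Ctla4 in Eµ-PRMT5/TCL1 spleen 4 and 8.13 to 23.2 CPM in the other 3 libraries, and without that library the ratio was 2.72, with an interval of 0.739 to 22.7 that includes 1.

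Cytokine and chemokine genes were mostly higher, but varied between mice. Ccl3 was at 660, 28.3, 95.8 and 20.99 CPM in NK cells and below 14.2 CPM in CD8 T cells (4.45 ± 0.70). Ccl4 was at 834, 21.2, 541 and 168 CPM against 52.9, 68.6, 21.7 and 53.1 CPM, so that in Eµ-PRMT5 spleen 2 the order was turned. Xcl1, the ligand that draws Xcr1-bearing dendritic cells, was at 554, 63.6, 479 and 0 CPM against 77.4, 121, 44.0 and 9.26 CPM, and in 2 of the 4 libraries the NK value was the lower. Each of these passed the test (adjusted p 6.80e-05 for Ccl3, 0.0015 for Ccl4 and 0.0118 for Xcl1), as did Ifng (2.03 ± 0.37) and Tgfb1 (1.62 ± 0.23). Ltb fell by 0.98 ± 0.22 on the log2 scale, and Tnf and Flt3l did not pass, which gave 5 of 8 up and 1 down with a median of 1.68.

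Among the 21 listed transcription factors tested, the largest rise was that of Irf8, known for its part in myeloid, B and NK cell programmes. It was at 967, 1307, 1355 and 2855 CPM in NK cells and at 10.3, 6.10, 15.6 and 58.5 CPM in CD8 T cells, a change of 6.10 ± 0.28 with the lowest adjusted p of all genes (1.38e-13). In all, 7 of them rose, 4 fell and the median was 0.22. Zeb2 (2.33 ± 0.33), Id2, Ikzf2, Runx3, Tbx21 and Nfil3 were the others that rose, with Id2 at 755 ± 126 against 158 ± 46.7 CPM. Tbx21, which encodes T-bet, rose by 0.97 ± 0.26. Eomes was at 373, 806, 321.8 and 504 CPM in NK cells and 272, 233, 186 and 392 CPM in CD8 T cells, and the difference did not pass (0.52 ± 0.23, adjusted p 0.21). Bcl11b, required for T cell identity, had 0 UMIs in NK cells and 800 in CD8 T cells (at least 9.49-fold lower), and Lef1 (-2.35 ± 0.30), Tcf7 (-1.45 ± 0.24) and Klf2 (-0.95 ± 0.23) also fell.

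**Figure D3:**
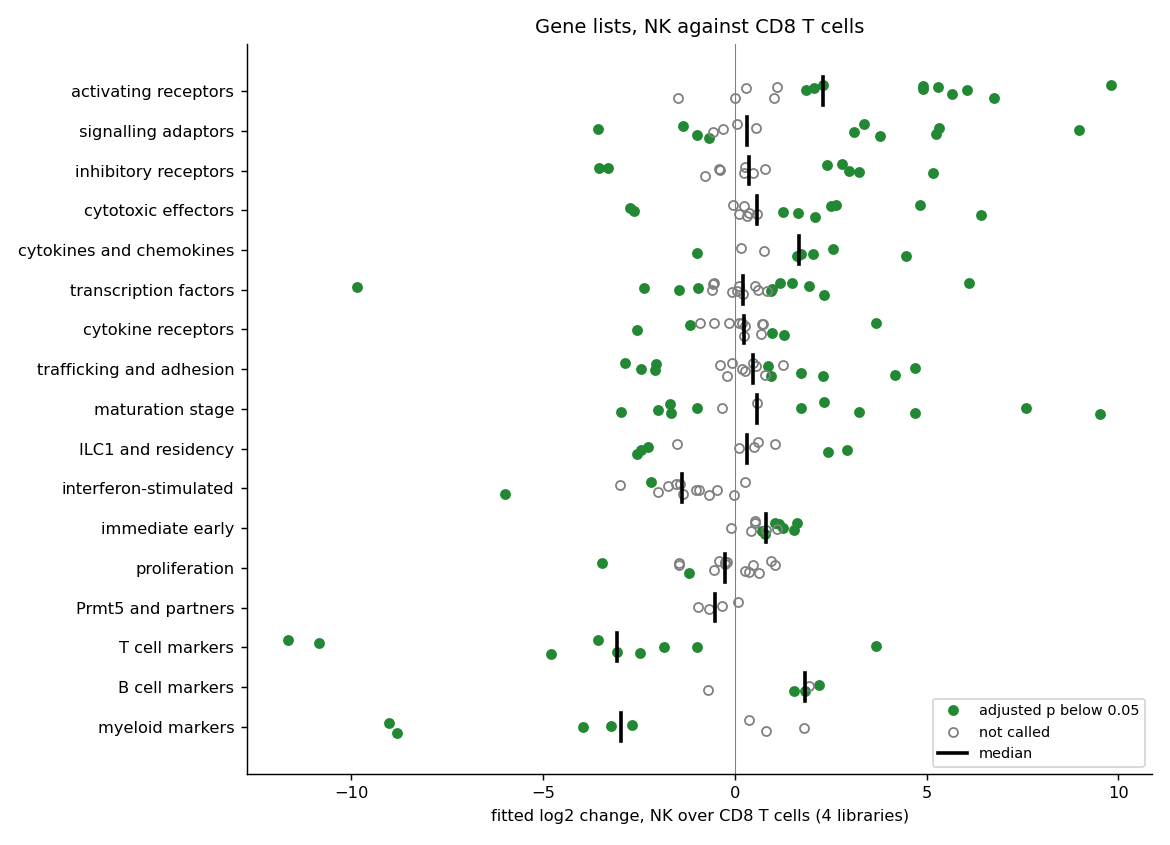
Fitted log2 change of NK over CD8 T cells (horizontal axis) for the tested members of the gene lists drawn (rows). Points are filled where the edgeR adjusted p was under 0.05, with the list median as a bar. The NK, dendritic cell and erythroid marker lists are not drawn. The activating receptors have a median of 2.30 and the T cell markers one of -3.06, against -0.10 over all genes; changes beyond about 8 in size rest on genes with 0 UMIs in 1 population and are not bounds.

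The cytokine receptors were largely shared, with 3 of 15 up, 2 down and a median of 0.24. Il2rb, the chain through which interleukin-15 sustains NK cells, was at 1440 ± 305 CPM against 607 ± 312 CPM (0.98 ± 0.19), and Il18rap rose by 1.28 ± 0.27. Il15 itself also passed (3.69 ± 1.16, adjusted p 0.048) on 8 UMIs in NK cells. Il7r fell by 2.54 ± 0.27 on the log2 scale, and Tgfbr2 by 1.16 ± 0.27. Il2rg and Ifngr1 did not pass, with changes of 0.10 and 0.19.

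Trafficking and adhesion genes moved in both directions, with 6 of 19 up, 4 down and a median of 0.48. The integrins Itgam (Cd11b, 4.69 ± 0.99), Itga2 (Cd49b, 4.19 ± 0.88) and Itga4 (1.72 ± 0.30) rose, as did S1pr5, the sphingosine phosphate receptor used by NK cells to leave marrow and nodes (2.29 ± 0.62). S1pr1, which T cells use for the same step, fell by 2.85 ± 0.39 on the log2 scale. Cxcr6, Cxcr3 and Ccr7 fell by 2.45, 2.08 and 2.04, although Ccr7 in NK cells ranged from 0 to 945 CPM. Cd69, Cd44 and Cxcr4 did not pass, with changes between -0.38 and 0.20.

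Of the NK maturation list, 6 of 13 tested genes were up and 5 down, with a median of 0.59. The list mixes genes of early and late stages, so these counts against CD8 T cells do not measure a stage. Itgam, Klrg1 and Zeb2 were among those that rose and Ltb among those that fell, with values given above. Cma1, the mast cell chymase gene, was at 40.0, 290, 20.5 and 63.0 CPM in NK cells with 0 UMIs in CD8 T cells (at least 496-fold higher, or 136-fold without Eµ-PRMT5 spleen 2). Kit, the stem cell factor receptor, was at 160, 290, 130 and 231 CPM in NK cells and at most 1.23 CPM in CD8 T cells (7.58 ± 0.48, adjusted p 4.33e-11). Thy1 fell by 2.97 ± 0.31 on the log2 scale, Cd55 by 2.00 ± 0.55, Ly6c2 by 1.68 ± 0.30 and Cd27 by 1.65 ± 0.26. Of the genes associated with ILC1 and tissue residency, Tmem176a (2.92 ± 0.68) and Tmem176b (2.43 ± 0.66) rose on 18 and 19 UMIs, while Il7r, Cxcr6 and Gpr183 fell. Itga1, the Cd49a integrin of ILC1, did not pass (0.51 ± 0.69), and the list median was 0.31 over 10 genes. Tmem176b was at 53.4, 0, 6.85 and 209.9 CPM in NK cells, highest in Eµ-PRMT5/TCL1 spleen 4, and without that library it did not pass the filter, 1 of 9 genes rose (Tmem176a) and the median was 0.12.

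Of 14 tested interferon-stimulated genes 0 rose and 2 fell, with a median of -1.38. They were Ifi27l2a, with 1 UMI in NK cells and a CD8 T to NK ratio of 47.1 (95% counting interval 8.43 to 1861, or a bound of at least 10.6 without Eµ-PRMT5 spleen 1), and Ifit3, which was lost in 8 alternatives. Without Eµ-PRMT5/TCL1 spleen 4 the genes that fell were Ifi27l2a, Bst2 and Ly6a, 3 of 14, with a median of -1.66. Of 13 immediate early genes, which respond within minutes to stimulation and also to tissue handling, 7 rose and 0 fell, with a median of 0.82. Fos (1.62 ± 0.33), Jun (1.54 ± 0.26), Dusp1 (1.27 ± 0.21) and Junb (1.14 ± 0.18) had the largest changes of the 13. Of 15 proliferation genes, 13 did not pass (median -0.24), including Mki67 and Top2a, and only Pclaf and Tubb5 fell. Without Eµ-PRMT5/TCL1 spleen 4 this list turned, with a median of 0.71 and with 2 of 13 genes higher (Mki67 and H2afz) and 0 lower. Mouse Prmt5 was at 25.96 ± 17.2 CPM in NK cells and 40.5 ± 10.4 CPM in CD8 T cells, and neither it nor its partners Wdr77, Clns1a and Riok1 passed (0 of 4). The mouse gene does not report on the human transgene.

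Of the T cell marker list, 8 of the 9 tested genes were lower in NK cells, with a median of -3.06. The gates required Cd3 in CD8 T cells and excluded it from NK cells. Lower levels of other T cell genes were therefore built into the comparison, and this list describes the gates rather than testing them. Trac, the constant gene of the T cell receptor alpha chain, had 3 UMIs in NK cells, a CD8 T to NK ratio of 20.2 (95% counting interval 6.89 to 97.9). Cd6 and Cd5 had 0 UMIs in NK cells (at least 34.6-fold and 21.3-fold lower, and 12.1-fold for Cd5 without Eµ-PRMT5/TCL1 spleen 4), and Cd28 fell by 3.06 ± 0.29 on the log2 scale. Trdc was the exception, higher by 3.67 ± 0.89 on 14 UMIs. Among markers of other lineages, 3 of 5 tested B cell genes rose, all of them MHC class II genes or the invariant chain. They were H2-Aa (2.20 ± 0.34), H2-Ab1 (1.84 ± 0.35) and Cd74 (1.53 ± 0.44), and Cd74 was at 974, 21.2, 116 and 4577 CPM in NK cells, above the CD8 T value in 2 of the 4 libraries. Immunoglobulin Igkc reached 4829 CPM in NK cells of Eµ-PRMT5 spleen 1 and 14.1 to 20.99 CPM in the other 3. Without the 3 cells carrying transcripts of another lineage the test called 824 genes (375 higher, 449 lower). Of 8 myeloid genes tested, 5 fell, with a median of -2.95, or -2.84 with genes at 0 UMIs set to their bound. They were Ltf, Camp, Ngp, S100a8 and S100a9, all genes of neutrophils. S100a9 was at 13.3, 28.3, 13.7 and 0 CPM in NK cells and at 2.15, 10.2, 241 and 203 CPM in CD8 T cells, and S100a8 at 6.67, 0, 20.5 and 0 against 3.01, 6.10, 151 and 118 CPM. For these 2 genes NK cells were the higher in 2 and in 1 of the 4 libraries, and their CD8 T levels were high only in Eµ-PRMT5 spleen 3 and Eµ-PRMT5/TCL1 spleen 4. Without Eµ-PRMT5/TCL1 spleen 4, 2 of 6 myeloid genes tested fell (Ngp and S100a8), with a median of -0.52. The dendritic cell gene Zbtb46 rose (1.78 ± 0.46) while Bst2 did not pass, and of the erythroid list Car2 rose by 4.41 ± 0.27 from 22.3 ± 12.1 to 597 ± 87.7 CPM while both tested hemoglobin genes did not pass. No gene of the basophil and mast cell list or of the group 2 and 3 innate lymphoid list passed the filter on low counts.

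The other genes among the 10 largest changes in each direction were as follows. On the higher side they were Trdv4 (226 ± 26.7 against 0.777 ± 0.745 CPM), a T cell receptor delta variable gene, Klrb1b, and the homeobox factor Hhex, which was at 53.4, 42.4, 130 and 210 CPM against at most 1.10 CPM. Serpinb9b, a granzyme inhibitor relative, and Hes1, a target of Notch signalling, had fewer than 4 UMIs in CD8 T cells, with NK to CD8 T ratios of 393 (95% counting interval 126 to 1984) and 211 (49.0 to 1899). Hes1 was at 13.3, 7.07, 13.7 and 209.9 CPM in NK cells against at most 0.274 CPM in CD8 T cells, so that most of its NK UMIs came from Eµ-PRMT5/TCL1 spleen 4. Without that library its ratio was 66.2 (10.8 to 695) on 5 UMIs in NK cells, and that of Serpinb9b was 489.7 (126 to 4194). The CD8 T sums held 13634163 UMIs against 485164 in the NK sums. A gene could therefore pass the filter on low counts through CD8 T cells alone. On the lower side, each of the 10 had 0 UMIs in NK cells. They were Cd6 and Cd5, the beta variable genes Trbv31, Trbv12-2, Trbv13-2 and Trbv12-1, the alpha variable gene Trav13-2, the thymocyte selection gene Themis, Slfn1 and Hdgfl3, with bounds from at least 6.04-fold (Trav13-2) to 34.6-fold (Cd6) lower. Some rested on 1 library. Trav13-2 was at 207 CPM in the CD8 T cells of Eµ-PRMT5 spleen 2 against 5.59, 5.08 and 24.8 CPM in the others, and without that library its bound was 0.992, below 1. Trbv31 was at 548 CPM there against 21.5, 33.6 and 71.1 CPM, and its bound fell from 18.02 to 4.33. Without Eµ-PRMT5 spleen 3 the bounds were 17.8 for Trbv12-2, 16.1 for Slfn1, 7.002 for Hdgfl3 and 6.32 for Trbv12-1, against 31.3, 27.3, 11.6 and 17.2 with it.

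NK cells were then described among themselves, by whether a cell held a Gzma UMI. This division was made after the values had been seen, it pools cells of all libraries, and it is given without a test. The share of cells with Gzma differed between groups, as given below, so the division was not separated from differences between mice. The 95 cells with a Gzma UMI had a median of 3926 UMIs and the 61 without had 3519. Because depth differed, each share is followed by its value with every cell thinned to 1500 UMIs (a separate random draw from that used for the gate check), and the thinned share in the 1200 B cells is given as background. Prf1 had a UMI in 67.4% of the former and 19.7% of the latter (thinned 48.4% and 11.5%, B cells 0.25%). Klrg1, found on mature NK cells, was in 37.9% against 3.28% (thinned 22.1% and 1.64%, B cells 0.0833%). Ly6c2, also found on mature NK cells, was in 33.7% against 3.28%, and its thinned share of 27.4% with Gzma compares with 1.64% without, which is below the 3.33% of B cells. Cma1 was in 22.1% against 0 of 61 cells, which allows up to 4.92% (thinned 14.7% and 0%, B cells 0%). Of its 53 NK UMIs in the 4 libraries with at least 10 NK cells, 12 remained without Eµ-PRMT5 spleen 2. Itgam was in 13.7% against 0 of 61 (thinned 5.26% and 0%, B cells 0.583%). The opposite order was seen for Il7r, at 6.32% against 41.0% (thinned 3.16% and 22.95%, B cells 1.75%), and for Kit, at 16.8% against 50.8% (thinned 7.37% and 26.2%, B cells 0.167%). Tcf7 was at 26.3% against 44.3% (thinned 10.5% and 26.2%, B cells 1.25%). Ltb was at 26.3% against 77.0% (thinned 11.6% and 44.3%), but B cells express this gene (thinned 38.9%) and give no background for it. In CD8 T cells the thinned shares were 43.6% for Il7r, 33.6% for Tcf7, 47.1% for Ltb and 0% for Kit. They were 6.69% for Prf1 and 36.7% for Ly6c2. Whether T cells within the gate gave part of these shares was not tested. Eomes was closer, at 68.4% against 52.5% (thinned 44.2% and 37.7%). Lef1 was at 17.9% against 9.84% (thinned 5.26% and 1.64%), while Gata3, at 33.7% against 26.2%, changed order on thinning (13.7% and 16.4%). Tmem176b and Cxcr6 were under 10% in both parts of this division.

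**Figure D4:**
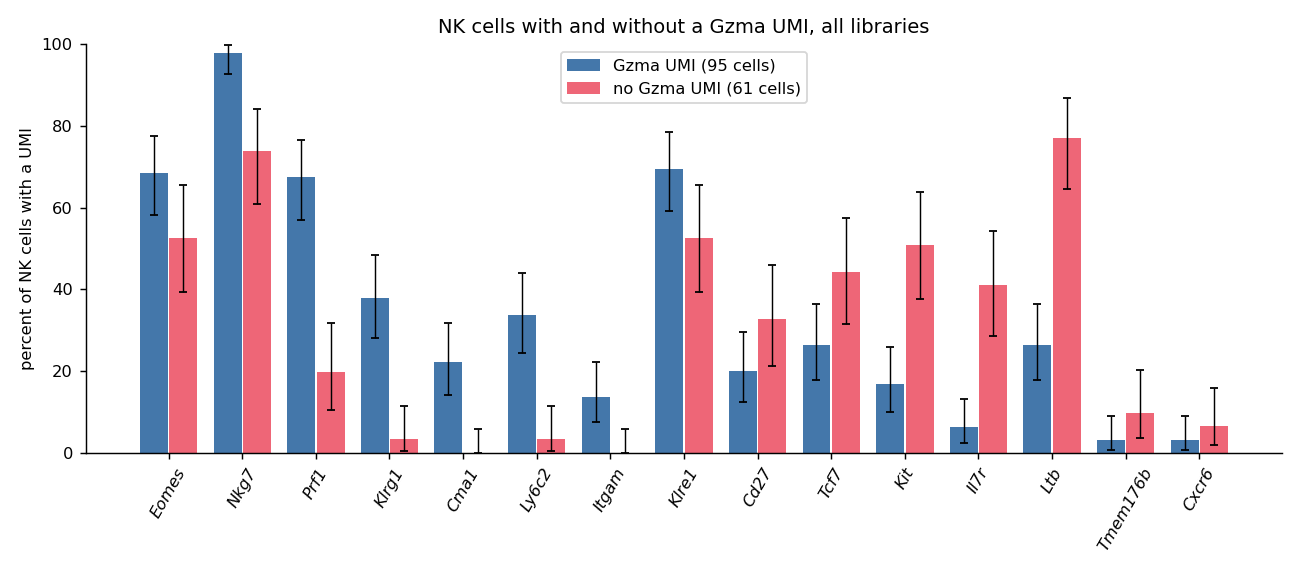
Percentage of NK cells with at least 1 UMI of each gene (vertical axis), for the 95 cells with and the 61 without a Gzma UMI, pooled over all libraries, with exact binomial 95% intervals that cover counting error only. Prf1, Klrg1, Cma1, Ly6c2 and Itgam are more frequent beside Gzma, while Il7r, Ltb and Kit are more frequent without it. Cells are not thinned in this plot.

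By group, a Gzma UMI was found in 68.8% of the 96 NK cells of Eµ-PRMT5 spleens, in 6 of 12 of Eµ-TCL1 spleens and in 12 of 26 of Eµ-PRMT5/TCL1 spleens. Among node NK cells it was found in 3 of 7 (Eµ-TCL1) and 8 of 15 (Eµ-PRMT5/TCL1). Thinned to 1500 UMIs the shares were 57.3%, 41.7%, 46.2%, 14.3% and 46.7%, and the median depths were 3976.5, 3292, 4431, 2982 and 3776 UMIs. For Tyrobp the thinned shares were 87.5%, 83.3%, 84.6%, 57.1% and 93.3% in the same order of groups, and unthinned 96.9%, 91.7%, 92.3%, 85.7% and 93.3%, against 7.25% thinned and 24.9% unthinned in B cells. These shares pool cells over mice and were not tested.

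Expression within NK cells was compared between genotypes next. Only 1 of these comparisons had libraries with at least 10 NK cells on both sides, namely Eµ-PRMT5/TCL1 spleen 4 (13 cells) against Eµ-PRMT5 spleens 1 to 3 (24, 32 and 39 cells). The lone library was assumed to vary like the other 3. edgeR's quasi-likelihood test called 67 of 3807 genes (1.76%), 9 of them higher (0.236%) and 58 lower (1.52%) in the Eµ-PRMT5/TCL1 spleen. Without Eµ-PRMT5 spleen 1, 2 or 3 in turn, 225, 266 and 0 genes were called. With libraries of at least 3 NK cells, which brought in Eµ-PRMT5/TCL1 spleens 2 and 3, 0 genes were called, and without the 3 cells holding transcripts of another lineage 112 were.

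Of the 58 lower genes, 37 encode ribosomal proteins. Rps27, for example, was at 587.8 CPM in NK cells of Eµ-PRMT5/TCL1 spleen 4 against 3768, 4989 and 3389 CPM in Eµ-PRMT5 spleens 1, 2 and 3. The same gene was at 887.5 CPM in the CD8 T cells of that library against 6717, 8040 and 5589 CPM, and at 608.1 CPM in its B cells against 5167, 5157 and 3906 CPM. All 58 lower genes lay below all 3 Eµ-PRMT5 spleens in CD8 T cells and in B cells as well, with median log2 ratios of -2.26 in NK, -2.29 in CD8 T and -1.88 in B cells. Over 3806 of the genes tested, 19.4% lay below all 3 in CD8 T cells, 33.8% in B cells and 16.3% in both. Ribosomal protein genes made up 9.26% of NK UMIs in that library, 11.9% in its CD8 T cells and 10.9% in its B cells. In the other libraries these shares were 16.4% to 38.2%, 23.3% to 40.0% and 19.6% to 32.6%. Both ends of the NK range were libraries with 1 NK cell, and in the 12 other libraries with at least 3 NK cells it was 18.3% to 25.9%.

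**Figure D5:**
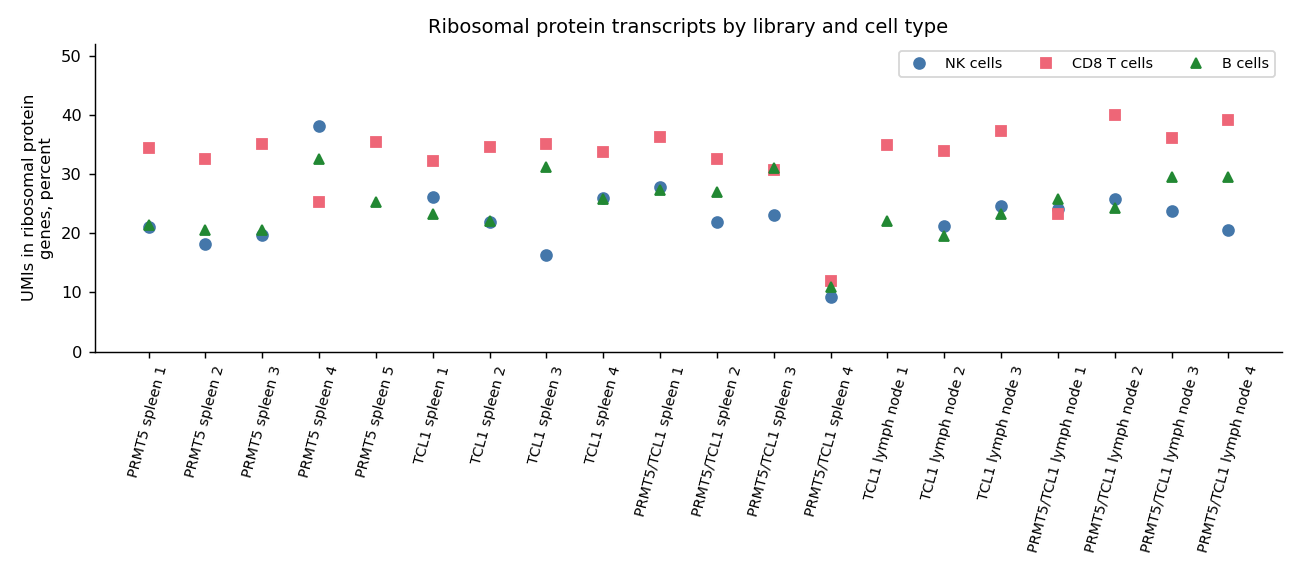
Percentage of UMIs in ribosomal protein genes (vertical axis) in NK, CD8 T and B cells of each library (horizontal axis), with no NK point where a library had no NK cell. In Eµ-PRMT5/TCL1 spleen 4 all 3 cell types lie near 10% (9.26%, 11.9% and 10.9%), below every other library.

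The largest changes outside the ribosomal genes were mostly shared with the other cell types of that library as well. Xist had 0 UMIs against 355 ± 65.9 CPM. By Xist and Y-linked transcripts this mouse was male and the other 3 were female, so sex and genotype cannot be told apart here. Elob, Ndufa1, Uqcrh and Lars2, genes of transcription elongation, the respiratory chain and mitochondrial translation, were lower in all 3 cell types. On the higher side, Igkv1-117, an immunoglobulin light chain variable gene, was at 399 CPM in NK cells of Eµ-PRMT5/TCL1 spleen 4 and 0 in those of the other 3, while it stood at 75302 CPM in the B cells of that library and 476 CPM in its CD8 T cells. Atf3, Glul, Itm2c, Ldha and Lgals3bp lay above all 3 Eµ-PRMT5 spleens in all 3 cell types, and of the 3806 genes 65.6% did so in CD8 T cells, 38.3% in B cells and 35.1% in both. Cd7, a surface glycoprotein of NK and T cells, was at 1637 CPM against 369 ± 67.9 CPM (1.86 ± 0.39, adjusted p 0.0424), and Cd27 at 378 CPM against 54.6 ± 16.5 CPM (2.48 ± 0.51, adjusted p 0.0394). With Ly6a (399 CPM against 0), these 2 were also higher in CD8 T cells but did not lie above the range of the 3 Eµ-PRMT5 spleens in B cells. Of the NK effector and receptor genes, Gzma (3905 against 2704 ± 727 CPM), Prf1 (714 against 285 ± 102 CPM), Klrk1 (819 against 683 ± 106 CPM) and Eomes (504 against 500 ± 266 CPM) did not pass, with edgeR adjusted p-values of 0.729, 0.298, 0.988 and 0.839. Over the gene lists, Cd27 and Cd7 were the 2 calls among 12 maturation genes and Ly6a the 1 among 5 interferon-stimulated genes, and every other list had 0.

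The other comparisons could be fitted only with libraries of at least 3 NK cells, and called nothing. Between Eµ-PRMT5 spleens 1 to 3 and Eµ-TCL1 spleens 2 and 4, edgeR's quasi-likelihood test called 0 of 868 genes (0%), with 36 at an unadjusted p under 0.05 and 0 by DESeq2. Gzma was at 2148, 3526 and 2437 CPM in the former and 1557 and 353 CPM in the latter, a log2 change of 1.65 ± 0.72 (edgeR adjusted p 0.986). Irf8 was at 1210 ± 212 against 433 ± 541 CPM and Cd7 at 369 ± 67.9 against 1248 ± 123 CPM. None of the 3 passed, and the Eµ-TCL1 values rest on 3 and 7 cells. Their groups did not overlap, which held for 31.5% of the 868 genes and so does not set these 3 apart. All 3 of these Eµ-PRMT5 mice were female and both Eµ-TCL1 mice male. Between Eµ-PRMT5/TCL1 spleens 2 to 4 and the same Eµ-TCL1 spleens, in a fit that shares those libraries, 0 of 868 genes (0%) were called, with 63 at an unadjusted p under 0.05 and 0 by DESeq2. Gzma was at 6393, 1530 and 3905 CPM there (2.07 ± 0.73, edgeR adjusted p 0.525). With sex as a covariate, which in this fit can be estimated only from Eµ-PRMT5/TCL1 spleen 4 (male) against spleens 2 and 3 (female), 65 and 84 of 1309 genes were called in the 2 comparisons.

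In lymph nodes, Eµ-PRMT5/TCL1 nodes 1 to 3 (5, 3 and 5 cells) were set against Eµ-TCL1 nodes 2 and 3 (3 and 4 cells), and edgeR called 0 of 230 genes (0%), with 30 at an unadjusted p under 0.05 and 1 by DESeq2. Nkg7, a granule membrane protein gene, was at 2355, 3016 and 3370 CPM against 1032 and 709 CPM (1.64 ± 0.36, edgeR adjusted p 0.125). Ltb was at 206 ± 127 against 1232 ± 740 CPM (-2.66 ± 0.66, edgeR adjusted p 0.152). Neither gene passed. Their groups did not overlap, as for 30.4% of the 230 genes. In the 4 mice with at least 3 NK cells in both tissues, edgeR with mouse as a block called 0 of 386 genes (0%) between node and spleen, with 19 at an unadjusted p under 0.05 and 0 by DESeq2. Irf8 was at 303 ± 218 CPM in nodes and 1212 ± 1185 CPM in spleens (-1.96 ± 0.72, edgeR adjusted p 0.87). The tissue difference in NK cells did not differ from that in CD8 T cells at any of 4417 genes (0%), with 183 at an unadjusted p under 0.05 and 0 by DESeq2. These comparisons had 2 to 4 libraries a side, with as few as 3 NK cells in a library.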

How the data were processed

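Viable cells were captured with the 10x Chromium Single Cell 3′ version 2 kit. The authors aligned reads to GRCm38 with Cell Ranger (version 2.0.1 per the submitters' processing notes, which also name Seurat 2.2.1, while the matrix headers give software version 3.1.0) and deposited raw UMI counts per gene for all barcodes, unfiltered and 1 matrix per library. Sex was read here from Xist and Y-linked transcripts. The NK cells, gates and gene lists were chosen with earlier results of these data known.

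UMI counts of gated cells were summed per library and tested with edgeR 4.0.16 (quasi-likelihood, filterByExpr, TMM, Benjamini-Hochberg, R 4.3.3) where a library held at least 10 NK cells. Comparisons that could not be fitted so used libraries with at least 3, chosen after seeing the data. The library was the block for NK against CD8 T cells, and the mouse for node against spleen, since 1 mouse gave both. The 11 gate genes were left out. Shares were compared by exact two-sided permutation over libraries (scipy 1.17.1), the paired ones by sign changes over mice. Named genes were the 10 with the largest log2 change each way among those past an adjusted p of 0.05 with a mean of at least 50 CPM, plus up to 4 members per list. Other members named in the text were chosen after their values were seen, for their known roles. Doublets were sought with Scrublet (scanpy 1.11.5), which called 0 NK cells and marked under 0.5% of cells in 5 of the 9 libraries with over 5000 cells, where it has not worked. NK sums rest on a median of 3819.5 UMIs per cell, and intervals cover counting error only. Alternatives were DESeq2 1.42.0, other filters, gates, depths, blocks, sex as a covariate and leaving out each library. The fits of NK against CD8 T cells, Eµ-PRMT5/TCL1 against Eµ-PRMT5 spleens and Eµ-PRMT5 against Eµ-TCL1 spleens were checked on simulated counts. These counts had no effect of mouse or library beyond depth, and the other fits were not checked. Some genes are not reported here.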

Additional observations from a re-analysis of the deposited data

Results flagged for a closer look

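In the spleens of Eµ-PRMT5 mice, library 2 lay far above the other 4 by Dixon's criterion, with NK cells at 3.15% of all cells and 4.66% of non-B cells. Among Eµ-PRMT5/TCL1 lymph nodes, library 1 lay far above the other 3, with 0.638% of all cells, 3.13% of non-B cells and 10.9% of NK plus CD8 T cells, on 5 NK cells. Groups were examined 12 times, and chance sets a sample apart in about 1 group in 20.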

How the results depend on the processing

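Of the share comparisons, those between node and spleen turned direction most. With at least 3 UMIs of Ncr1 and Klrb1c the node minus spleen difference was -0.0977 points of NK plus CD8 T cells. With at least 1 UMI it was -0.00424 points of all cells and -0.458 of NK plus CD8 T cells. On the log10 scale it was -0.0590, -0.225 and -0.371 for all, non-B and NK plus CD8 T cells, and Eµ-PRMT5/TCL1 minus Eµ-PRMT5 spleens became 0.0660 for non-B cells. At the 3 UMI gate, Eµ-PRMT5/TCL1 minus Eµ-TCL1 spleens passed unadjusted, at 0.207 points of non-B and 0.853 of NK plus CD8 T cells (exact permutation p 0.0286 each). The cause was not tested. Leaving out 1 mouse moved node minus spleen from -0.0234 to 0.0703, -0.140 to 0.300 and -0.782 to 1.24 for the 3 denominators. Leaving out 1 library moved the node difference between genotypes from 0.000877 to 0.206 (all cells), -0.0470 to 0.979 (non-B) and -0.0272 to 3.55 (NK plus CD8 T), lowest, and turned for the last 2, only without Eµ-PRMT5/TCL1 lymph node 1. It moved Eµ-PRMT5 minus Eµ-TCL1 spleens from 0.272 to 1.06, 0.409 to 1.57 and 2.34 to 4.91, and Eµ-PRMT5/TCL1 minus Eµ-PRMT5 spleens from -0.974 to -0.186, -1.29 to -0.128 and -3.43 to -0.862, with every value nearest 0 in the absence of Eµ-PRMT5 spleen 2. For Eµ-PRMT5/TCL1 minus Eµ-TCL1 spleens the ranges were 0.0521 to 0.121, 0.148 to 0.379 and 0.755 to 2.00, nearest 0 without Eµ-PRMT5/TCL1 spleen 4 for the first 2 and spleen 1 for the last.

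Counts of genes called moved as follows. NK against CD8 T cells gave 389 (183 higher, 206 lower) with as many CD8 T as NK cells. The higher and lower calls were 346 and 417 as reported, 323 and 276 by DESeq2, and 369 and 636 with libraries of at least 3 cells. The median of all genes was -0.40 without a filter on low counts, against -0.10. Without that filter, Eµ-PRMT5/TCL1 against Eµ-PRMT5 spleens gave 27 genes, Eµ-PRMT5 against Eµ-TCL1 spleens 10, Eµ-PRMT5/TCL1 against Eµ-TCL1 spleens 8 and nodes 19, node against spleen 1 and its difference between cell types 1. Eµ-PRMT5/TCL1 against Eµ-PRMT5 spleens gave 0 with libraries of at least 3 cells, 112 without cells of another lineage's transcripts, and 0 to 266 without 1 library. Sex as a covariate gave 65, 84 and 1 genes for the 2 spleen comparisons with Eµ-TCL1 and the nodes. The nodes gave 1 by DESeq2 and 0 to 4 without 1 library (4 without Eµ-TCL1 lymph node 3).

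Genotype groups shared only a replicate number. Over 15 same-numbered pairs, deviations correlated between -0.384 and 0.344, over 0.1 in 6. With that number as a block 1, 6 and 17 genes were called for Eµ-PRMT5 against Eµ-TCL1 spleens, Eµ-PRMT5/TCL1 against Eµ-TCL1 spleens and nodes, and no share comparison passed. Without the library block NK against CD8 T cells gave 195 genes (126 higher, 69 lower). For the 120 named or listed genes that were called, 1535 of 1715 values kept direction and call, 180 lost the call and 0 reversed. Cd74 and Ifit3 lost it in 8 alternatives each. Among the expression comparisons, at least 20 cells and the 3 UMI gate were run only for NK against CD8 T cells, and neither sex nor the replicate number was fitted in Eµ-PRMT5/TCL1 against Eµ-PRMT5 spleens. Libraries in these fits held 3 to 39 NK cells.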

Other observations

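Some gene families outside the lists also differed between NK and CD8 T cells of the same 4 libraries in edgeR's quasi-likelihood test. They were chosen after their values were seen. Of 80 ribosomal protein genes tested, 76 were lower in NK cells and 0 higher, with a median log2 change of -1.02, and of 13 mitochondrially encoded genes 11 were lower (median -0.93). T cell receptor beta variable genes were lower for 20 of 20 and alpha variable genes for 9 of 17, while both delta variable genes tested were higher, Trdv4 by 7.90 ± 0.43 and Trdv2-2 by 4.97 ± 0.55. Because the gates chose cells by Cd3, lower alpha and beta variable genes were built into this comparison.

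Single genes outside the lists were chosen in the same way. Cd83, an activation marker of dendritic and B cells, was at 400, 14.1, 212 and 357 CPM in NK cells of Eµ-PRMT5 spleens 1, 2 and 3 and Eµ-PRMT5/TCL1 spleen 4, against 3.05 to 12.9 CPM in CD8 T cells (log2 change 4.15 ± 0.34). Its lowest NK value lay just above the highest CD8 T value. Cd9, a tetraspanin, was at 487, 777, 1075 and 419.9 CPM against 24.4 to 84.8 CPM (3.74 ± 0.33). Lyn, a Src family kinase, rose by 3.80 ± 0.37 and the integrin Itgax by 2.10 ± 0.35. The highest NK value of Itgax was in Eµ-PRMT5/TCL1 spleen 4 (209.9 CPM). Any part of dendritic cells within the gate in Cd83 and Itgax was not tested. Lck, a kinase of T cell receptor signalling, fell by 1.25 ± 0.22 on the log2 scale. Klk8 had 3 UMIs in NK cells against 2410 in CD8 T cells.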
